A study of Mus musculus with 7 samples.

Results

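The comparison described here sets the uterus of mice 18 h after an injection of dihydrotestosterone (DHT), an androgen that aromatase cannot turn into estrogen, against the uterus 3 h after it. It uses 2 of the 7 arrays of the series, those titled 18 h and 3 h, with 1 array of pooled RNA on each side, and all 12422 probe sets of the array other than the maker's controls. Both groups were C57BL/6 females, labelled as 10 to 11 weeks old, whose ovaries had been removed 7 days before death and who received 0.1 mg DHT under the skin. The protocol also says that mice of that age were bought and then kept for 4 weeks, so the age at death is not settled. It names 10 mice without saying whether they formed each pool. The design text lists no 18 h group where the array titles do, and the titles were followed. The other arrays are 1, 6, 12 and 24 h of DHT and a vehicle control killed 24 h after its injection. Vehicle takes no part in the comparison, and its values are given for orientation.

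Androgens act through the androgen receptor, a transcription factor that moves to the nucleus when it binds a ligand. The receptor's direct targets and the immediate early genes, which need no new protein synthesis, respond within the first hours. Programmes such as cell division, matrix production and the contractile apparatus of smooth muscle commonly follow later. In the uterus the receptor is found in the stroma and the smooth muscle of the myometrium. Loss of the ovaries removes most of the estrogen and progesterone that otherwise drive this tissue.

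From 3 h to 18 h, 88 genes were at least 2-fold higher and 85 at least 2-fold lower, out of 6326 genes with a signal above background on some array. That is 1.39% and 1.34% of the genes, and 46.8% of the genes had a ratio above 0. These shares are the background for the counts in each list below. Among the 15 genes with the lowest ratios were the DNA damage and stress gene Gadd45g, the polo-like kinase Plk2 and the secreted signal Wnt4. Among the 15 with the highest were the sarcomeric actin Acta1, the smooth muscle actin Actg2 and the mitotic kinase Aurkb. Among the lists of genes by pathway, mitosis genes stood highest, with 18 of 41 at least 2-fold higher and none 2-fold lower, and immediate early genes stood lowest, with 4 of 23 at least 2-fold lower and none 2-fold higher. With 1 array on each side there is no replicate spread, so no difference was tested and every ratio describes these 2 arrays.

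At the level of probe sets, 125 were at least 2-fold higher at 18 h (1.01%) and 109 at least 2-fold lower (0.877%). A floor was set at a signal of 145.9, the 40th percentile over all arrays, and lower signals were set to it so that noise among dim probe sets does not enter. A ratio with one side at the floor is a lower bound on the fold. Of the probe sets past 2-fold, 33 of those higher and 30 of those lower were bounds, and 4522 probe sets were at the floor on both arrays. Among the 8421 probe sets above the floor on some array, 88.7% differed by less than 1.5-fold and the median log2 ratio was 0.0. At least 3-fold differences were found for 14 probe sets higher and 21 lower. The count of 234 probe sets at least 2-fold apart was the third highest of the 21 pairs of arrays, which ranged from 63 to 266. The 18 h array stood 120 probe sets from the 12 h array and 107 from the 24 h array, and the 3 h array stood 148 from 1 h and 159 from 6 h.

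Both arrays came scaled to the same mean of 499.9 over the central probe sets, so like overall signal follows from that scaling. Their medians were 234 at 3 h and 231 at 18 h, with 39.7% and 40.3% of values under the floor. Transcripts spiked in as controls gave lower signals at 18 h, by a mean log2 difference of -0.47 over 9 probe sets. The ratio of 3' to 5' signal, a measure of RNA integrity, was 0.889 for Gapdh at 3 h and 0.839 at 18 h, and 1.16 and 1.08 for beta actin. Whether these differences bear on any gene below was not tested.

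**Figure D1:**
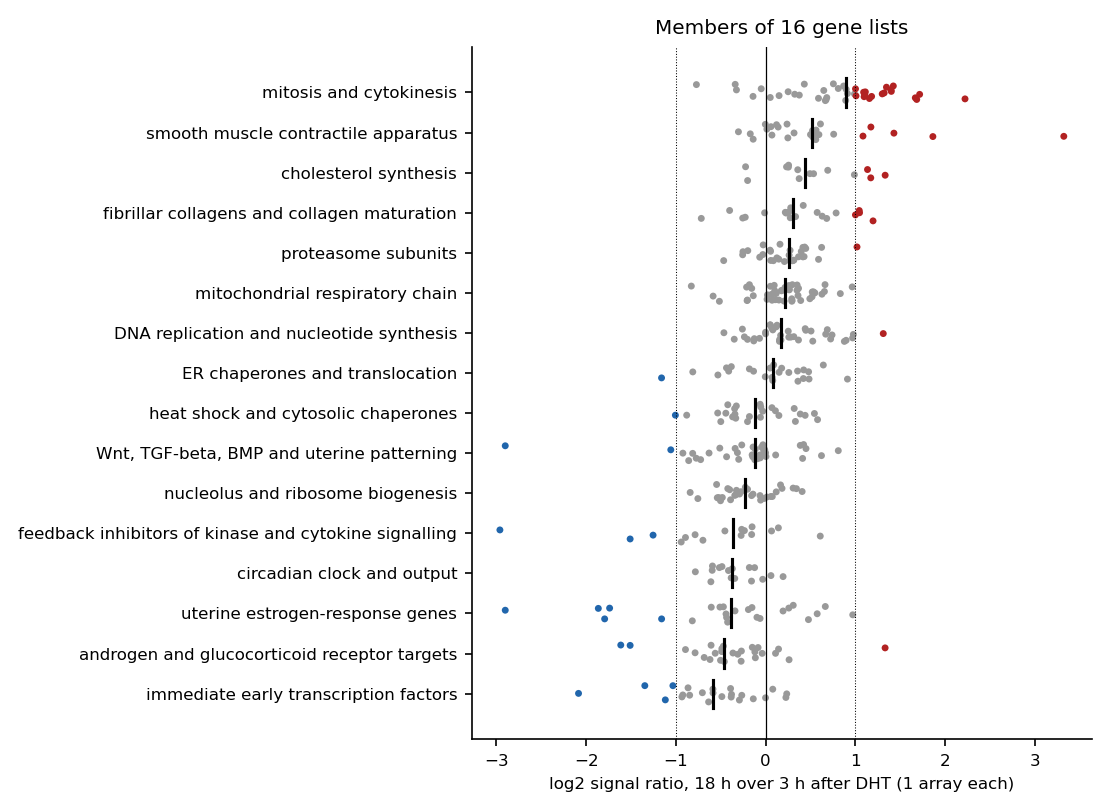
Log2 ratios of signal at 18 h over 3 h for the members of 16 gene lists, 1 point per gene above the floor, with the median of each list as a black bar and dotted lines at 2-fold. The list of mitosis genes lies furthest to the right, with a median of 0.90, and the immediate early list furthest to the left, with a median of -0.59.

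Gadd45g, a small protein induced by DNA damage and cytokines that binds and activates the stress kinase Map3k4, had the lowest ratio of all genes with the floor used here. With the floor at the 20th percentile Ada was lower, at -4.33 against -3.57 for Gadd45g. Its signal was 3183 at 3 h against 268 at 18 h, beside 435 with vehicle and, on the other arrays, 1481 (1 h), 790.1 (6 h), 429.9 (12 h) and 349 (24 h). The 3 h array was the highest of all 7 and the 18 h array the lowest, a difference of 11.9-fold. Of its relatives, Gadd45a, which is a target of p53, had signals of 864 at 3 h against 305 at 18 h, beside 500.2 with vehicle and, on the other arrays, 858 (1 h), 409 (6 h), 337 (12 h) and 388 (24 h), a log2 ratio of -1.50. Gadd45a was thus nearly as high at 1 h as at 3 h, whereas Gadd45g was still higher at 3 h. Gadd45b stood at 263 at 3 h against 178 at 18 h, a log2 ratio of -0.56, while another probe set was at the floor on both arrays.

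The other gene named in the title of the series, Atm, which encodes the kinase that senses double-strand breaks, had nearly equal signals of 368 at 3 h against 386 at 18 h. Its log2 ratio was 0.07. The list of Gadd45, Atm and p53 damage genes did not move one way. Of 24 members above the floor, 2 were at least 2-fold lower, Gadd45g and Gadd45a, and 3 at least 2-fold higher, and the median was 0.15. The 3 that were higher are linked to the cell cycle. The Cdk1-activating phosphatase Cdc25c stood at 150.2 at 3 h against 396 at 18 h, while another probe set was at the floor on both arrays. Cyclin G1 (Ccng1), a p53 target, stood at 207 at 3 h against 415 at 18 h. The checkpoint kinase Chek1 was below the floor at 3 h and read 316 at 18 h, at least 2.17-fold higher. The p53 target Cdkn1a, an inhibitor of cyclin-dependent kinases, had a log2 ratio of -0.51 on its brightest probe set and 0.78, a lower bound, on another, so its direction is uncertain. Mdm2, the negative regulator of p53, had 0.15.

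Immediate early genes encode transcription factors and regulators that respond to growth factors and stress without new protein synthesis. Of 23 above the floor, 19 had ratios below 0 and 4 were at least 2-fold lower. Over all genes the median was 0.0 and 1.34% were at least 2-fold lower. Ier3, an early response gene linked to cell survival, had signals of 2856 at 3 h against 674 at 18 h, beside 913 with vehicle and, on the other arrays, 1431 (1 h), 957 (6 h), 619.5 (12 h) and 844 (24 h), so that the 3 h array stood alone at the top. Cebpb, a factor needed for decidualization of the uterine stroma, read 1490.3 at 3 h against 587 at 18 h. Klf4, a zinc finger factor, read 1869 at 3 h against 914 at 18 h. Both were highest at 3 h and lowest at 18 h among the 7 arrays. Another probe set for Klf4 was at the floor at 3 h and 18 h.

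Jun, a subunit of AP-1, behaved in another way. Its signal was 704 at 3 h against 324 at 18 h, beside 811 with vehicle and, on the other arrays, 919.9 (1 h), 780.0 (6 h), 652 (12 h) and 560.2 (24 h), which is no peak at 3 h but a low value at 18 h. Its partner Fos read 1319.9 at 3 h against 734 at 18 h, a log2 ratio of -0.85, with 964 at 1 h. Egr1, a zinc finger factor induced by serum, read 1806 at 3 h against 1203 at 18 h, and Myc read 476 at 3 h against 363 at 18 h. Members with ratios above 0 were Zfp36l1, an RNA-binding protein that destabilizes messages, at 0.24, Fosb at 0.23 and Fosl2 at 0.08.

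A list drawn up for inhibitors that are switched on by the pathways they restrain also held the kinases Plk2, Plk3 and Sgk1. It had 16 members above the floor. Of these, 13 had ratios below 0, 3 were at least 2-fold lower (against 1.34% of all genes) and none 2-fold higher. The median was -0.36. Plk2, a polo-like kinase induced by serum and by p53, had signals of 5850.4 at 3 h against 752 at 18 h, beside 1060.4 with vehicle and, on the other arrays, 1679 (1 h), 662 (6 h), 666 (12 h) and 782 (24 h). The 3 h value was more than 3 times that of any other array, and 18 h differed little from 6, 12 or 24 h. Errfi1, an inhibitor of the epidermal growth factor receptor, read 2932 at 3 h against 1030.1 at 18 h, beside 831 with vehicle and, on the other arrays, 1256 (1 h), 1598 (6 h), 1316 (12 h) and 902 (24 h). A further probe set for Errfi1 gave a log2 ratio of -1.13. Socs3, which blocks cytokine signalling through JAK kinases, read 633 at 3 h against 266 at 18 h on its brightest probe set, and another probe set gave 0.09, so its direction is uncertain. The phosphatase Dusp1, which inactivates MAP kinases, read 1639 at 3 h against 883 at 18 h, and the NF-kappaB inhibitor Nfkbia 1487 at 3 h against 863 at 18 h. Rgs2, which restrains G protein signalling, went the other way with a log2 ratio of 0.61.

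Among 20 growth factors, cytokines and vasoactive peptides above the floor, 3 were at least 2-fold lower, against 1.34% of all genes. None was 2-fold higher and the median was -0.19. Adm encodes adrenomedullin, a peptide that widens vessels, and its signal was 663 at 3 h against 107 at 18 h, beside 175 with vehicle and, on the other arrays, 302 (1 h), 213 (6 h), 98.4 (12 h) and 103 (24 h). Its 18 h value was below the floor, so the difference was at least 4.54-fold. Ramp3, which joins the calcitonin receptor-like receptor to form a receptor for adrenomedullin, read 1417 at 3 h against 389 at 18 h, beside 402 with vehicle and, on the other arrays, 578 (1 h), 791 (6 h), 511 (12 h) and 437 (24 h). Both components were highest at 3 h. Vegfa, the main growth factor for vessels, read 619 at 3 h against 215 at 18 h, beside 200.2 with vehicle and, on the other arrays, 372 (1 h), 513 (6 h), 282 (12 h) and 269 (24 h), with 18 h close to vehicle. Inhbb, the beta B subunit of inhibin and activin, was above 2 times the floor at 3 h alone, with 506 at 3 h against 11.9 at 18 h, at least 3.47-fold lower at 18 h.

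Wnt4, a ligand needed for decidualization and for development of the female tract, had signals of 1089 at 3 h against 135 at 18 h, beside 296 with vehicle and, on the other arrays, 359 (1 h), 921 (6 h), 254 (12 h) and 60.4 (24 h). It stayed high at 6 h and was below the floor at 18 and 24 h, which makes the difference between 3 h and 18 h at least 7.47-fold. Id3, a dominant negative helix-loop-helix protein downstream of BMP signals, read 2182 at 3 h against 1049 at 18 h. The list of Wnt, TGF-beta and BMP genes held 36 members above the floor. Wnt4 and Id3 were at least 2-fold lower, against 1.34% of all genes, and none was 2-fold higher. The median of the list was -0.12.

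**Figure D2:**
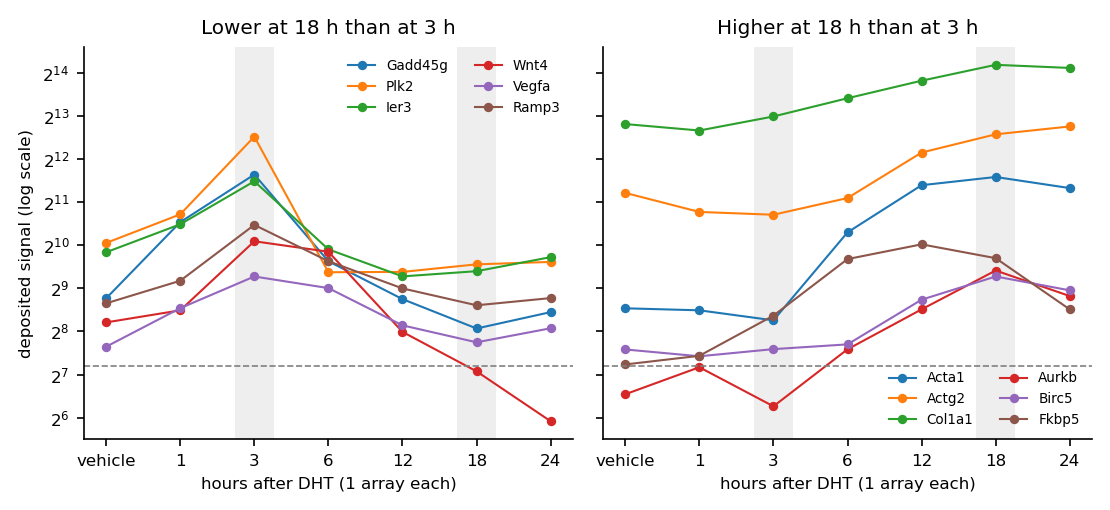
Deposited signal on all 7 arrays, on a log axis, for 6 genes lower and 6 genes higher at 18 h than at 3 h, with the 2 compared arrays shaded, the floor dashed and the times evenly spaced rather than to scale. The genes on the left have their highest point at 3 h, with 3183 for Gadd45g, and those on the right are higher at 12, 18 and 24 h than at 3 h.

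Genes known to respond to estrogen in the uterus were also listed. Of 24 above the floor, 17 had ratios below 0, 5 were at least 2-fold lower (against 1.34% of all genes) and none 2-fold higher. The median was -0.38, but -0.10 when all probe sets of a gene were averaged. The 5 were Wnt4, Ramp3, Inhbb, Padi1 and Pgr. Padi1, an enzyme that turns arginine in proteins into citrulline, read 705 at 3 h against 212 at 18 h, beside 181 with vehicle and, on the other arrays, 263 (1 h), 369.9 (6 h), 447 (12 h) and 164 (24 h). Pgr, the progesterone receptor, read 536 at 3 h against 240.1 at 18 h, beside 357 with vehicle and, on the other arrays, 461 (1 h), 385 (6 h), 298 (12 h) and 225 (24 h). Among products typical of an estrogen-exposed epithelium, log2 ratios were -0.10 for lactoferrin (Ltf), 0.48 for Sprr2f and 0.97 for Clca1, of which a further probe set was at the floor.

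Targets of the androgen and glucocorticoid receptors followed different courses. Of 27 above the floor, 23 had ratios below 0, with a median of -0.46, which became -0.21 with the floor at the 60th percentile. At least 2-fold lower were 2, Igfbp3 and Errfi1, against 1.34% of all genes. At least 2-fold higher was 1, against 1.39%. Fkbp5, a co-chaperone of steroid receptors and a textbook androgen target, was the only member at least 2-fold higher, with signals of 329.8 at 3 h against 830.2 at 18 h, beside 151 with vehicle and, on the other arrays, 173 (1 h), 818 (6 h), 1037 (12 h) and 364 (24 h). At 3 h it was above vehicle but below its values at 6, 12 and 18 h. Zbtb16, a zinc finger repressor, was already high at 3 h and read 1015 at 3 h against 661 at 18 h, beside 227 with vehicle and, on the other arrays, 275 (1 h), 1146 (6 h), 950.2 (12 h) and 541 (24 h). Hsd11b2, which inactivates glucocorticoids, had about equal signals of 645 at 3 h against 608 at 18 h, both above the vehicle value of 326. The spermidine synthase Srm read 547 at 3 h against 591 at 18 h, also above its vehicle value of 281.

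Igfbp3, which binds insulin-like growth factors in the extracellular space, was the androgen target with the lowest ratio. Its signal was 3954 at 3 h against 1292 at 18 h, beside 4755 with vehicle and, on the other arrays, 5207 (1 h), 3208 (6 h), 1625 (12 h) and 3067 (24 h). Its 3 h value was below vehicle, so the low 18 h value and not a peak at 3 h made the difference. A further probe set for Igfbp3 gave -0.93. Of 10 genes for these growth factors, their receptors and binding proteins, Igfbp3 alone was 2-fold lower and none was higher.

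Genes of the circadian clock were compared because the arrays differ by 15 h and the time of day at death is unknown here. Of 16 above the floor, 14 had ratios below 0 and none reached 2-fold, with a median of -0.38. Per1, a clock repressor that glucocorticoids also induce, read 339 at 3 h against 242 at 18 h. Arntl, the activator of the clock, read 546 at 3 h against 410.2 at 18 h. The repressor Nr1d1 read 957 at 3 h against 859 at 18 h, and 318 at 12 h. Per2 and Dbp read 190.3 and 159 at 3 h and were under the floor at 18 h. Time after DHT and time of day cannot be told apart for the 2 arrays.

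Other genes among the 15 lowest were metabolic enzymes and surface proteins. Bcat1, which starts the breakdown of branched-chain amino acids, read 5521 at 3 h against 1613 at 18 h, beside 2016 with vehicle and, on the other arrays, 2386 (1 h), 3582 (6 h), 2135 (12 h) and 2241 (24 h). Dio2, which turns the thyroid hormone precursor into its active form, read 3551 at 3 h against 1048 at 18 h, beside 2289.5 with vehicle and, on the other arrays, 3091 (1 h), 2865 (6 h), 1676 (12 h) and 1048 (24 h), and was low at 24 h too. Plet1, a surface protein of epithelial progenitors, read 7139.6 at 3 h against 2215 at 18 h, beside 2663 with vehicle and, on the other arrays, 3589 (1 h), 4439 (6 h), 2339 (12 h) and 2439.5 (24 h). Bcat1 and Plet1 peaked at 3 h, while Dio2 was high on all arrays up to 6 h.

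Stress genes past 2-fold were few. Hsph1, a chaperone of the cytosol, read 1838 at 3 h against 916 at 18 h, beside 862 with vehicle and, on the other arrays, 1137 (1 h), 2637 (6 h), 1747 (12 h) and 840.4 (24 h), with its top at 6 h. Of 26 heat shock genes above the floor it alone was at least 2-fold lower and none was higher. Ddit3, the transcription factor CHOP of the unfolded protein response, was below the floor at 18 h and read 326 at 3 h, at least 2.23-fold lower. The ER chaperone list as a whole had a median of 0.09. Genes of nucleolus and ribosome production had 22 of 31 ratios below 0 and none past 2-fold, with a median of -0.23.

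Mitosis and cytokinesis genes formed the pathway list with the most members past 2-fold. They encode the cyclins, kinases, motors and chromosome proteins that carry a cell from G2 through division. Of 48 on the array, 41 were above the floor, and 36 of these had ratios above 0. The median ratio was 0.90, and 18 were at least 2-fold higher, beside 1.39% of all genes. Of the 41, 7 were at the floor on one of the 2 arrays. With the floor at the 60th percentile, 6 were at least 2-fold higher and the median was 0.58.

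Aurkb, the kinase of the chromosomal passenger complex that corrects attachments of the spindle, had signals of 76.8 at 3 h against 681 at 18 h, beside 93.2 with vehicle and, on the other arrays, 144 (1 h), 192 (6 h), 365 (12 h) and 452 (24 h). It was under the floor at 3 h and at least 4.67-fold higher at 18 h. Birc5 (survivin), which belongs to the same complex, read 193 at 3 h against 619 at 18 h, beside 192 with vehicle and, on the other arrays, 172 (1 h), 208 (6 h), 426 (12 h) and 495 (24 h). The scaffold of the complex, Incenp, read 341 at 3 h against 428 at 18 h, a log2 ratio of 0.32, so its members did not share one size of difference. All 3 were highest at 18 h among the 7 arrays.

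Ccnb2, a B-type cyclin, read 1239 at 3 h against 3095 at 18 h, beside 1298 with vehicle and, on the other arrays, 1394 (1 h), 1119 (6 h), 1632 (12 h) and 2264 (24 h). Its partner kinase Cdk1 read 629.8 at 3 h against 1361 at 18 h, beside 562 with vehicle and, on the other arrays, 664 (1 h), 629.5 (6 h), 974 (12 h) and 1055 (24 h). For both, the 3 h array lay within the range of vehicle, 1 h and 6 h, and the 12, 18 and 24 h arrays all lay above it. The anaphase activator Cdc20 read 809 at 3 h against 1626 at 18 h, and the phosphatase Cdc25c had a log2 ratio of 1.40.

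Proteins that shape chromosomes and the spindle had a similar course. Smc2, a core subunit of condensin, read 212 at 3 h against 675 at 18 h, beside 279 with vehicle and, on the other arrays, 308 (1 h), 295 (6 h), 432 (12 h) and 470.2 (24 h). Topoisomerase 2 alpha (Top2a), which untangles sister chromatids, read 211 at 3 h against 477 at 18 h. The motor Kif22 read 632 at 3 h against 1669 at 18 h, and Kif11, which pushes the spindle poles apart, was below the floor at 3 h and read 391 at 18 h. Prc1 and Racgap1 organize the central spindle, and their log2 ratios were 1.30 and 1.35. The other members past 2-fold were the spindle checkpoint protein Mad2l1 (1.00), the Cdk1-binding protein Cks2 (1.09), the contractile ring protein anillin (Anln, 1.10), the motor Kif20a (at least 1.11) and Ckap2 (1.16), a protein of the spindle. A further probe set for Kif20a gave 0.29, so the size of its difference is uncertain. Nusap1, a microtubule-associated protein, was also under the floor at 3 h and read 133 at 3 h against 479.5 at 18 h, beside 242 with vehicle and, on the other arrays, 282 (1 h), 190.1 (6 h), 423 (12 h) and 391 (24 h). Another probe set for Nusap1 was at the floor at 3 h and 18 h.

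Members that did not follow were Ube2c, Pttg1, Nek2, Mybl2 and Cenpa. Ube2c, the ubiquitin-conjugating enzyme of the anaphase-promoting complex, read 249 at 3 h against 134 at 18 h, beside 117 with vehicle and, on the other arrays, 226 (1 h), 199 (6 h), 361 (12 h) and 324 (24 h). Its 18 h array was low between neighbours that were high, and its log2 ratio was -0.77. The transcription factors Foxm1 and Mybl2, which switch on mitotic genes, had log2 ratios of 0.05 and -0.14 on their brightest probe sets. A further probe set for Foxm1, under the floor at 3 h, gave at least 0.83, so the value for Foxm1 is uncertain. The proliferation marker Mki67 read 375 at 3 h against 685 at 18 h on its brightest probe set, a log2 ratio of 0.87, and another gave -0.36, so its direction is uncertain.

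**Figure D3:**
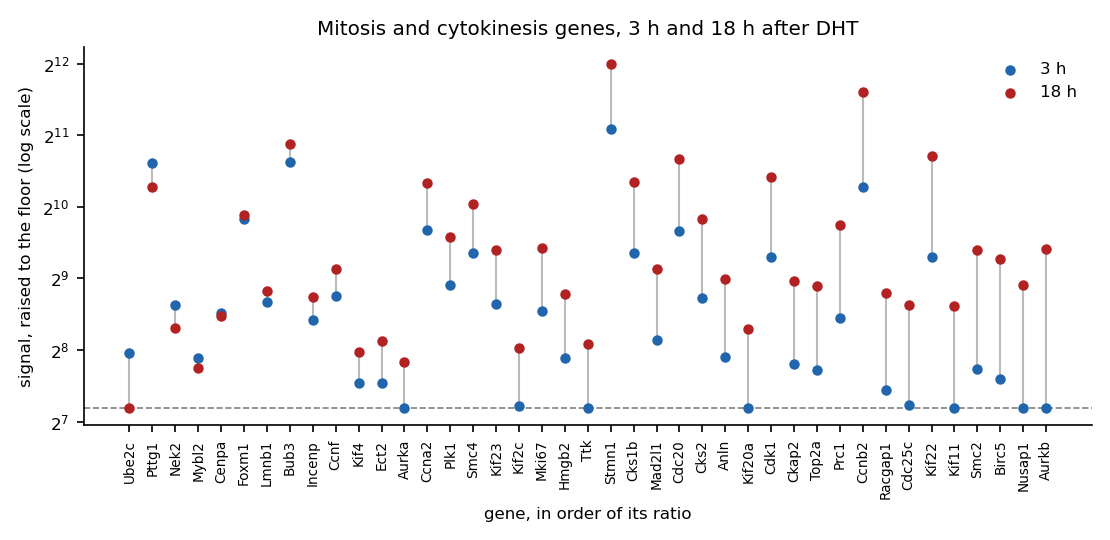
Signals at 3 h and 18 h, raised to the floor (dashed) and on a log axis, for the 41 mitosis and cytokinesis genes above the floor, ordered by their ratio. The 18 h point is the higher one for 36 genes, with at least 4.67-fold for Aurkb at the right, and the lower one for 5 at the left.

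The promoters of mitotic genes are known for a CCAAT box, bound by the factor NF-Y, and a cell cycle homology region, bound by the DREAM and MuvB complexes that repress these genes in resting cells. The promoter of 4 such genes with ratios past 2-fold is printed here, chosen after their values were seen because each holds both motifs. Sequences are from RefSeq on GRCm38.p6, 250 bases before to 50 after the start of the gene, on the gene's strand. Capitals mark CCAAT and the cell cycle homology region, searched as TTTGAA or TTCGAA, on either strand, so that a match on the opposite strand reads ATTGG or TTCAAA.
Ccnb2 (chr9:70421505-70421804, minus strand, log2 ratio 1.32): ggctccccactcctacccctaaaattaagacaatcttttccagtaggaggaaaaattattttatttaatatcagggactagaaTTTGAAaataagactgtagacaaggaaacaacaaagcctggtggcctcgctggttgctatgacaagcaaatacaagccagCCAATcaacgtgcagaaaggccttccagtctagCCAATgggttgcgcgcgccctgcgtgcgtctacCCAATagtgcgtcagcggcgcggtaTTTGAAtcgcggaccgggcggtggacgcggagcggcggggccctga
Cdk1 (chr10:69352863-69353162, minus strand, log2 ratio 1.11): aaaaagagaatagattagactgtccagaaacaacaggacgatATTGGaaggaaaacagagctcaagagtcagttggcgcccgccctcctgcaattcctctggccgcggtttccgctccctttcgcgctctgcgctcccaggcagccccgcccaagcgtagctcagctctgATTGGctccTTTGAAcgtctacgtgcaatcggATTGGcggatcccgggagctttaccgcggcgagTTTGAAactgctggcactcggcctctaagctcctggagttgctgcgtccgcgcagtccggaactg
Kif22 (chr7:127042371-127042670, minus strand, log2 ratio 1.40): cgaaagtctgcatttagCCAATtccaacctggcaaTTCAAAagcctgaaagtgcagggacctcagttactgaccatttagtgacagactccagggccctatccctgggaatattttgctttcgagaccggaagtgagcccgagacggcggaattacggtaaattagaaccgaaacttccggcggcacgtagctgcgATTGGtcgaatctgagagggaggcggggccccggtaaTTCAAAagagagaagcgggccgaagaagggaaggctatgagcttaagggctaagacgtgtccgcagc
Prc1 (chr7:80294201-80294500, plus strand, log2 ratio 1.30): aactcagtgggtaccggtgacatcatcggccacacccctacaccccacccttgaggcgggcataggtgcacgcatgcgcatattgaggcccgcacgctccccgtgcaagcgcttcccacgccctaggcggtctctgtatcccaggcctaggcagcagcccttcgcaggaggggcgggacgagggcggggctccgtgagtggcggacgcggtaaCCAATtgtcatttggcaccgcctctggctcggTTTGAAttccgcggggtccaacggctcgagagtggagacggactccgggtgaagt
In Ccnb2 the box occurs 3 times upstream, the match nearest the start beginning at base -21 relative to it, and a homology region lies just after the start, with another at -167. In Cdk1 the nearest box begins at base -48 and the nearest homology region at -15. The pair begins at -54 and -17 in Kif22, and at -37 and -5 in Prc1.

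The shares of promoters with these letters were counted over the same 300-base window in 4 gene lists and in all genes. A promoter was matched for 32 of the 41 mitosis genes. Of the 32, 25 held CCAAT (78.1%), 25 the cell cycle homology region (78.1%) and 23 both (71.9%). Over 27025 genes with a promoter, the shares were 37.9%, 19.4% and 7.70%. Within the list, both motifs were found in 10 of the 15 promoters of genes past 2-fold and in 13 of the other 17, so the letters did not set apart the members with larger ratios.

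Of 38 DNA replication genes above the floor, 29 had ratios above 0, against 46.8% of all genes. The median was 0.17, and 1 gene was at least 2-fold higher, against 1.39% of all genes. That gene was Pola1, the catalytic subunit of the polymerase that starts each new strand, with signals of 123 at 3 h against 362 at 18 h, beside 282 with vehicle and, on the other arrays, 246 (1 h), 227 (6 h), 373 (12 h) and 238 (24 h). It was under the floor at 3 h and at least 2.48-fold higher at 18 h. Pclaf, which binds the sliding clamp PCNA, was not in the list but among the 15 highest of all genes, and it read 189 at 3 h against 627 at 18 h, beside 232 with vehicle and, on the other arrays, 275 (1 h), 310.2 (6 h), 553 (12 h) and 367 (24 h). The further probe sets for Pclaf were at the floor at 3 h and 18 h.

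Replication genes are commonly driven by E2F factors, and the promoter of Pola1 holds such a site. It is shown here with the E2F site, searched as TTTGGCGC or TTTCCCGC on either strand, and the CCAAT box in capitals.
Pola1 (chrX:93632106-93632405, minus strand, log2 ratio 1.31): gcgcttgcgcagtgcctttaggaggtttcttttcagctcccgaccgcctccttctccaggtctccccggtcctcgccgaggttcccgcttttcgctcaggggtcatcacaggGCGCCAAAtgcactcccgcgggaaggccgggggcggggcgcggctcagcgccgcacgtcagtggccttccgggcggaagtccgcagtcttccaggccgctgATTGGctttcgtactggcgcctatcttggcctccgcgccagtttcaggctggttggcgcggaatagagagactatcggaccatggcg
The E2F site begins at base -138 and is read on the opposite strand. Of 35 replication promoters matched, 8 held an E2F site (22.9%), against 1.63% of all promoters. None of the 32 mitosis promoters held these letters. The cell cycle homology region was found in 7 of the 35 replication promoters (20.0%), near its share in all promoters.

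Some smooth muscle genes were at least 2-fold higher at 18 h. Genes of this list encode the actins, myosin and associated proteins with which the myometrium contracts. Of 26 above the floor, 22 had ratios above 0, 5 were at least 2-fold higher (against 1.39% of all genes) and none 2-fold lower. The median was 0.51. Acta1, the actin typical of striated muscle, had the highest ratio of all genes. Its signal was 306 at 3 h against 3060.3 at 18 h, beside 371 with vehicle and, on the other arrays, 359 (1 h), 1257 (6 h), 2682 (12 h) and 2560.0 (24 h). The 3 h array was the lowest of the 7 and 18 h the highest, a difference of 10.0-fold.

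Markers of skeletal muscle were low, with 4 of 7 above the floor and a summed signal of 718 at 3 h and 821 at 18 h. Their log2 ratios lay between -0.47 and 0.56. Whether skeletal muscle in the samples has a part in the Acta1 values was not tested.

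Actg2, the actin of visceral smooth muscle, read 1669 at 3 h against 6075 at 18 h, beside 2371 with vehicle and, on the other arrays, 1745 (1 h), 2182 (6 h), 4533 (12 h) and 6895 (24 h). Actc1, the cardiac actin, read 1093 at 3 h against 2466 at 18 h, beside 1329.5 with vehicle and, on the other arrays, 1348 (1 h), 1469 (6 h), 2587 (12 h) and 2595 (24 h). The probe sets for Actg2 and Actc1 are of a kind that the array's design marks as shared within a gene family, so signal from other actins may be included and these values are uncertain. Another probe set for Actc1 was at the floor at 3 h and 18 h. Pdlim3, an adaptor between actinin and other proteins of the contractile apparatus, read 416 at 3 h against 1119.9 at 18 h, beside 644 with vehicle and, on the other arrays, 672 (1 h), 651 (6 h), 1179.5 (12 h) and 1022 (24 h). Calponin (Cnn1), which binds actin in smooth muscle and slows the myosin motor, read 1765 at 3 h against 3746 at 18 h, beside 2019.8 with vehicle and, on the other arrays, 2056 (1 h), 2278 (6 h), 3134 (12 h) and 3391 (24 h). All 4 were lowest at 3 h among the 7 arrays, and all were higher at 12, 18 and 24 h than on any earlier array.

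The main contractile genes showed smaller ratios. Acta2, the smooth muscle alpha actin, read 7114 at 3 h against 12037 at 18 h, a log2 ratio of 0.76. The smooth muscle myosin heavy chain Myh11 read 6024 at 3 h against 8896 at 18 h, a log2 ratio of 0.56. The kinase Mylk, which switches the myosin on, had 0.52 and its substrate Myl9 had 0.56. The cytoplasmic actins Actb and Actg1, which are not specific to muscle, had -0.30 and -0.14.

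The 8 genes used as markers of smooth muscle, all of them also in the contractile list, were all higher at 18 h, with a median of 0.59 and a summed signal of 37609 at 3 h and 58461 at 18 h. In pooled whole uterus, a larger share of smooth muscle cells and more RNA per cell cannot be told apart. The markers of epithelium, stroma and endothelium had smaller differences. The 12 epithelial markers above the floor had a median of -0.05 and summed to 13396 and 13285. The 8 stromal markers had a median of -0.08 and summed to 40119 and 37056. The 8 endothelial markers had a median of -0.06.

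Serum response factor binds the CArG box, which is known for its part in actin and other muscle genes. The box, searched in its usual consensus form, was added after the values had been seen. Promoters of the 2 actins that hold it and are past 2-fold are printed with the box, and any CCAAT, in capitals.
Acta1 (chr8:123894726-123895025, minus strand, log2 ratio 3.32): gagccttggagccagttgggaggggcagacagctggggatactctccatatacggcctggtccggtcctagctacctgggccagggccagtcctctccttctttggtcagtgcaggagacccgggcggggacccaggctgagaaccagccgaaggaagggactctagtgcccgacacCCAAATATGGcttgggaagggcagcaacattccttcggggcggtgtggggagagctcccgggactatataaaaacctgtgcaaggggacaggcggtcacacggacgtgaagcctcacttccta
Actc1 (chr2:114052826-114053125, minus strand, log2 ratio 1.17): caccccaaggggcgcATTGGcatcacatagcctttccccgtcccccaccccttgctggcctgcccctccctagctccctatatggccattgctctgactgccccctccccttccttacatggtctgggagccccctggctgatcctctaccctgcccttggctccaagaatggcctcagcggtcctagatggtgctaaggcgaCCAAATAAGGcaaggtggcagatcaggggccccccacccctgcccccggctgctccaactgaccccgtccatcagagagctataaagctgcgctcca
The CArG box begins at base -73 in Acta1 and at -47 in Actc1. It was found in 6 of 22 promoters of the smooth muscle list (27.3%), against 1.57% of all promoters, 1 of 18 immediate early promoters (Zfp36) and none of the 32 mitosis promoters.

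**Figure D4:**
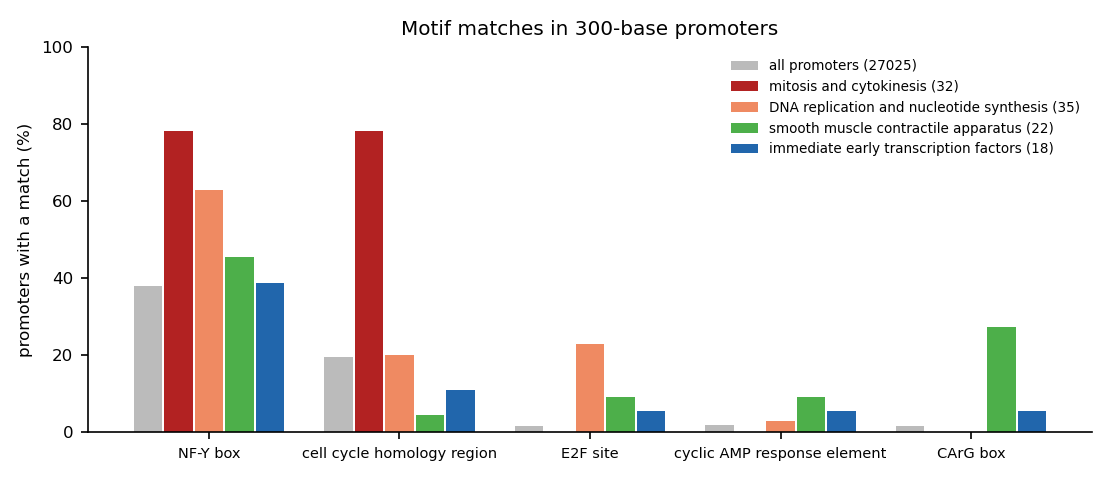
Share of 300-base promoters with at least 1 match, in percent, for 5 motifs in all promoters and in 4 gene lists, with the number of promoters in each set in parentheses and NF-Y box standing for CCAAT. The mitosis list stands at 78.1% for the NF-Y box and for the cell cycle homology region, the replication list at 22.9% for the E2F site and the smooth muscle list at 27.3% for the CArG box.

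Among the 15 genes with the lowest ratios, 2 promoters held the cyclic AMP response element, searched as TGACGTCA. They were those of Plk2, at base -62, and Dio2, at -95. The element is bound by CREB and is present in 1.88% of all promoters. Its share over all 85 genes lower at 18 h is not given here, so the 2 promoters are examples and no trait of that set. The element is in capitals in the 2 sequences.
Plk2 (chr13:110394794-110395093, plus strand, log2 ratio -2.96): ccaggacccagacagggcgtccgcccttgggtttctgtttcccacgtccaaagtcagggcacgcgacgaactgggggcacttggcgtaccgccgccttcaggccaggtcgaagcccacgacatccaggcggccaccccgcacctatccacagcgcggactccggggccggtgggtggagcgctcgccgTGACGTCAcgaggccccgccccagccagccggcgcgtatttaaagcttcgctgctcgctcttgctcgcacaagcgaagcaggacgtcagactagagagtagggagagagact
Dio2 (chr12:90738989-90739288, minus strand, log2 ratio -1.76): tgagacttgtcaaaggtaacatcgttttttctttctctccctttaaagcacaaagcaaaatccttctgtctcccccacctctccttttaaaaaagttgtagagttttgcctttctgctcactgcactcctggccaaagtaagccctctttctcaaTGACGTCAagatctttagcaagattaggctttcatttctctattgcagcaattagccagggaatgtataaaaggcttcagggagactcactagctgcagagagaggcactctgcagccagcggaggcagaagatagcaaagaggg
The element was not shared by the early genes in general, with 1 of 18 promoters of the immediate early list (Btg2), and it was also found in Pdlim3, which was higher at 18 h. The promoters of Gadd45g and Ier3 held CCAAT, and those of Cebpb, Klf4 and Wnt4 held none of the 5 motifs in this window.

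Some collagen genes were at least 2-fold higher at 18 h. Of 20 fibrillar collagens and proteins of collagen maturation above the floor, 15 had ratios above 0, with a median of 0.31. At least 2-fold higher were 4, against 1.39% of all genes, and none was 2-fold lower. Col1a1, a chain of type I collagen, read 8092 at 3 h against 18558 at 18 h, beside 7164 with vehicle and, on the other arrays, 6459 (1 h), 10847 (6 h), 14379 (12 h) and 17649.5 (24 h). A further probe set gave 1.02. Col3a1, the chain of type III collagen, read 4582 at 3 h against 9173 at 18 h, beside 4089 with vehicle and, on the other arrays, 5126 (1 h), 5786 (6 h), 9104 (12 h) and 10513 (24 h), and its 2 further probe sets gave 1.75 and 1.58. Its signal was higher at 24 h than at 18 h. Col5a2, which regulates fibril diameter, read 1428 at 3 h against 2949.6 at 18 h. Sparc, a collagen-binding protein of the matrix, read 1546 at 3 h against 3188 at 18 h. Serpinh1, the collagen chaperone, had a log2 ratio of 0.63. Loxl1, a crosslinking enzyme, read 239.7 at 3 h and was under the floor at 18 h.

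Other matrix genes went both ways. In the basement membrane, Col15a1 read 1460.2 at 3 h against 3149.8 at 18 h. The laminin chain Lamc1 had a log2 ratio of 1.31 on its brightest probe set, while another was at the floor on both arrays. Of 28 proteoglycans, elastic fibre and matricellular proteins, the large proteoglycan versican (Vcan) was at least 2-fold higher, with 438 at 3 h against 888 at 18 h. Ccn2 (connective tissue growth factor) and Tnxb (tenascin X) were at least 2-fold lower, with 497 at 3 h against 218 at 18 h for Ccn2 and 1501 at 3 h against 659 at 18 h for Tnxb. A further probe set for Tnxb gave -0.43.

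Of 14 cholesterol synthesis genes above the floor, 12 had ratios above 0. At least 2-fold higher were 3, against 1.39% of all genes, and none was 2-fold lower. The median was 0.43, which became 0.25 with the floor at the 60th percentile. Sqle, squalene epoxidase, read 396 at 3 h against 997 at 18 h, beside 449 with vehicle and, on the other arrays, 339 (1 h), 525 (6 h), 768 (12 h) and 492 (24 h). Idi1, an isomerase of the isoprenoid path, read 174 at 3 h against 391 at 18 h, beside 83.9 with vehicle and, on the other arrays, 155 (1 h), 244 (6 h), 576 (12 h) and 203 (24 h), with its top at 12 h. Fdps, which makes farnesyl diphosphate, read 555 at 3 h against 1219 at 18 h, and another probe set gave 1.11 while 2 more were at the floor. Hmgcs1, the enzyme ahead of the rate-limiting step, read 362 at 3 h against 718 at 18 h, a log2 ratio of 0.99.

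Large housekeeping complexes had small differences. Of 48 respiratory chain genes above the floor, 39 had ratios above 0, none was past 2-fold and the median was 0.21. Of 31 proteasome subunits, 24 had ratios above 0, with a median of 0.26, and Psmd14, the deubiquitinase of the lid, was at least 2-fold higher with 386 at 3 h against 781 at 18 h. Ribosomal proteins had a median of -0.15 over 23 genes. Psat1, an enzyme of serine synthesis, read 534 at 3 h against 1252 at 18 h, beside 534 with vehicle and, on the other arrays, 665 (1 h), 1052 (6 h), 1424 (12 h) and 879 (24 h). H1f2, a linker histone, was at least 2-fold lower, with 1255 at 3 h against 527 at 18 h, although the median of 19 histone and chromatin assembly genes was 0.24.

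Among immune cell lists, 4 of 6 B cell, 4 of 7 neutrophil and 4 of 8 mast cell markers were above the floor. MHC class II genes, which mark antigen-presenting cells, had 5 of 5 above it and all 5 lower at 18 h. H2-Ab1, a beta chain, read 1211 at 3 h against 809 at 18 h, beside 1425 with vehicle and, on the other arrays, 1303 (1 h), 1340.0 (6 h), 855 (12 h) and 875 (24 h), and the invariant chain Cd74 read 4764 at 3 h against 3749 at 18 h. Their median was -0.35 and their summed signal 10812 at 3 h and 8417 at 18 h. Of 7 T cell markers 1 was above the floor, and of 3 eosinophil markers none was. Of 5 NK cell markers 2 were above the floor, and the protease Gzmb was under it at 3 h and read 345 at 18 h. Gzmb read 328 with vehicle and, on the other arrays, 281 (1 h), 220 (6 h), 235 (12 h) and 212 (24 h). Its 3 h array was thus the lowest and 18 h was near vehicle. The 9 macrophage markers above the floor had a median of -0.19 and none past 2-fold.

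Some of the largest ratios rested on 1 array or 1 probe set. Ada, which deaminates adenosine, read 1198 at 3 h against 59.7 at 18 h, beside 756 with vehicle and, on the other arrays, 611 (1 h), 259.8 (6 h), 609.5 (12 h) and 823 (24 h), where 18 h is far below both neighbours in time, and its 2 further probe sets were at the floor. Snx17, a sorting nexin, had the same shape with 779.8 at 3 h against 134 at 18 h, beside 418 with vehicle and, on the other arrays, 379.9 (1 h), 555 (6 h), 514 (12 h) and 552 (24 h), and its other probe set gave 0.19. Phf7, a PHD finger protein, had -2.02 on its brightest probe set and -0.30 on another, with 3 at the floor. Uck1, a nucleoside kinase, had -1.88 and 0.05.

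On the side of higher genes, Tradd, the adaptor of the TNF receptor, read 443 at 3 h against 2182 at 18 h, beside 2104 with vehicle and, on the other arrays, 1042 (1 h), 1482 (6 h), 1911 (12 h) and 1407 (24 h), where the 3 h array was the lowest and 18 h near vehicle. Ttc39b, a tetratricopeptide repeat protein, read 191 at 3 h against 883 at 18 h, beside 991 with vehicle and, on the other arrays, 895 (1 h), 721 (6 h), 555 (12 h) and 722 (24 h), again a low value at 3 h alone, and its 3 other probe sets were at the floor. The pseudogene Snrp1c-ps2 read 344 at 3 h against 1851 at 18 h, beside 486 with vehicle and, on the other arrays, 821 (1 h), 539.5 (6 h), 305 (12 h) and 335 (24 h), with 18 h alone high. Prp2, a proline-rich protein, read 272 at 3 h against 781 at 18 h, beside 952 with vehicle and, on the other arrays, 755 (1 h), 419 (6 h), 159 (12 h) and 207 (24 h), and Ube2k, a ubiquitin-conjugating enzyme, had 1.48 on one probe set and -0.34 on another. Another probe set for Prp2 was at the floor at 3 h and 18 h. The remaining genes of the 15 highest read 132 at 3 h against 421 at 18 h for the acetyltransferase Kat2a, 157 at 3 h against 458 at 18 h for the glutathione transferase Gsta4 and 227 at 3 h against 639.9 at 18 h for the neurotrophic factor Pspn. Kat2a was under the floor at 3 h, so its difference was at least 2.88-fold.

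Krtdap, a keratinocyte differentiation protein, and the elongation factor Eef1b2 were also at least 2-fold higher. Krtdap read 159 at 3 h against 366 at 18 h. Eef1b2 read 181 at 3 h against 409 at 18 h on its brightest probe set, with another at the floor on both arrays. The brightest read 424 with vehicle and, on the other arrays, 224 (1 h), 156 (6 h), 262 (12 h) and 165 (24 h), so 18 h was near vehicle. The brightest probe sets of Kif20a, Lamc1, Fdps, Ttc39b and Snrp1c-ps2 are, like those of Actg2 and Actc1, marked as shared within a family, and their values are uncertain.

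Arrays outside the comparison were used to see which differences recurred. The mean log2 signal of 12 and 24 h was set against that of 1 and 6 h, which shares no array with the comparison. Of the 88 genes higher at 18 h, 73 were also higher in the later of these arrays, against 49.1% of all genes, with a median difference of 0.51. Of the 85 lower at 18 h, 60 were also lower, against 47.8% of all genes, with a median of -0.27. With 24 h against 1 h alone the counts were 69 and 60, and with 12 h against 6 h they were 74 and 65. Across the 6326 genes, Pearson's r between both differences was 0.40, a description only since genes are not independent and all arrays share one scaling.

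Members of the lists followed the same pattern to different degrees. For the mitosis genes 40 of 41 were higher in the later of the other arrays, with a median of 0.54, and the exception was Pttg1. The smooth muscle list had a median of 0.34, the collagen list 0.30 and the cholesterol list 0.31. The immediate early list had -0.22 and the estrogen-response list -0.02, so the median of the latter was near 0 in the other arrays. Among the 15 highest and the 15 lowest genes, 12 each had the same sign there. The exceptions were Snrp1c-ps2, Ttc39b and Prp2 among the highest and Ada, Snx17 and Phf7 among the lowest.

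**Figure D5:**
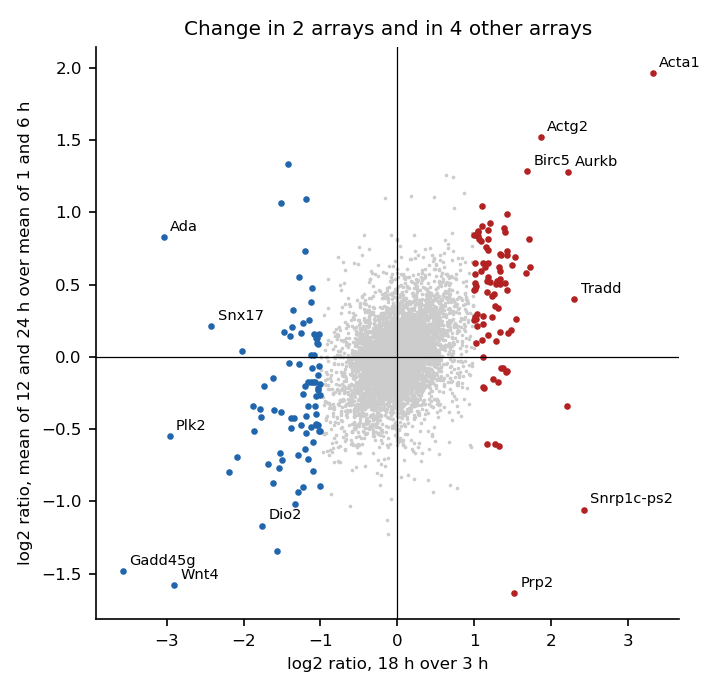
Each gene's log2 ratio of 18 h over 3 h (horizontal) against its log2 ratio of the mean of 12 and 24 h over the mean of 1 and 6 h (vertical), with genes at least 2-fold higher in red, at least 2-fold lower in blue and all others in grey. Acta1 and Gadd45g lie far out in both, while Ada, Snrp1c-ps2 and Prp2 change sign.

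The course against vehicle differed within both sets. Of the 85 genes lower at 18 h, 22 were at least 2-fold above vehicle at 3 h, 28 were at least 2-fold below vehicle at 18 h, and 36 were neither at 3 h nor at 18 h 2-fold from vehicle. Gadd45g belongs to the first kind and Jun to the second. Of the 88 genes higher at 18 h, 40 were at least 2-fold above vehicle at 18 h, 17 at least 2-fold below vehicle at 3 h, and 31 were neither 2-fold from vehicle at 3 h nor at 18 h. Acta1 belongs to the first kind and Tradd to the second. The 3 h array was the highest of 7 for 52 of the 85 and the lowest for 49 of the 88. Both sets were chosen by their 3 h and 18 h values, so an extreme at 3 h is partly built in.

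Where a gene had more than 1 probe set above the floor, these were compared. In 1077 such genes, 31 had a first probe set past 2-fold, and the last probe set had the same sign in 23 of them and was past 2-fold in the same direction in 4. Over all 1077 genes the signs were the same in 52.2%, a share that includes genes with ratios near 0. Pearson's r between the ratios of the first and the last probe set was 0.24 over these genes.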

How the data were processed

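Affymetrix U74Av2 arrays were used, and the authors deposited linear intensity values. The submitters' processing notes name MAS5, and detection calls were not used here. Both arrays had a mean of 499.9 over the central probe sets, and this scaling was kept. Of 12488 probe sets 66 were controls and were left out. Of the other 12422, 10833 named 1 gene, 396 several and 1193 none. Signals were raised to the 40th percentile and log2 was taken; a gene was given by its brightest probe set naming it alone, with 6326 of 8252 genes above the floor. No test was possible with 1 array per side, so 2-fold counts and list medians are descriptions. Named genes were the 15 highest and 15 lowest, up to 4 list members past 2-fold in each direction, the Gadd45 genes, Atm and 5 clock genes; others described were chosen after their values were seen. The members and lists were chosen with earlier results of these data known. Alternatives changed the floor, scaling, probe set choice, filter and fold. Promoters were the first listed for each gene. Python 3.11.15, pandas 2.3.3 and numpy 2.4.6 were used, and the procedure was tested on simulated data.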

Additional observations from a re-analysis of the deposited data

How the results depend on the processing

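Among the 73 named genes, none of those past 2-fold changed sign under the alternatives run, and no list median of at least 0.1 in size did. Moving the filter or the fold cannot reverse the sign of a gene's ratio, so for these the outcome was fixed in advance. Moving the floor cannot reverse the sign of a probe set's ratio, but it can change which probe set of a gene is brightest. Single probe sets did differ in sign from the brightest one, with 0.19 for Snx17, 0.09 for Socs3, 0.05 for Uck1 and -0.34 for Ube2k. Quantile normalization and centring each array on its median left all 6 counts that they recompute within 1.5 times. The floor and the fold moved the counts most. With the floor at the 20th percentile, 392 probe sets were higher and 503 lower, and 252 and 326 genes; at the 60th, 49 and 42 probe sets, 35 and 34 genes, and 6 mitosis genes were counted. At 1.5-fold the counts were 485 and 469 probe sets, 362 and 353 genes, 30 mitosis and 12 immediate early genes; at 3-fold, 14 and 21, 10 and 18, 4 and 1. The androgen and glucocorticoid target median was -0.34 with the 20th and -0.21 with the 60th percentile. The 60th also gave -0.15 for estrogen-response, 0.25 for cholesterol and 0.58 for mitosis genes. Averaging all probe sets of a gene gave medians of -0.42 for immediate early, -0.10 for estrogen-response, 0.76 for mitosis and 0.41 for smooth muscle genes. When each probe set was set against the brightest one, 59.3% had the same sign, against 74.2% for first and last. Of 436 values for 73 named genes, 389 moved by less than 0.5 on the log2 scale, and 26 of the 47 others came from the floor at the 60th percentile. No paired analysis was possible because each group has 1 array. Signal near the floor, 1 pool per time and a vehicle pool taken at 24 h alone limit every value.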
